A study of Gallus gallus with 8 samples.

Results

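Whether cartilage mineralises depends on the balance between inorganic phosphate, which builds mineral, and inorganic pyrophosphate, which blocks its growth. The 8 genes described here are among those that act on that balance. They are ANKH and ENPP1, which supply pyrophosphate outside the cell, the phosphatases ALPL and PHOSPHO1 with the sphingomyelinase SMPD3, and the phosphate transporters SLC20A1, SLC20A2 and SLC34A2. Members were taken by gene name, and every probe set of the array whose only annotated gene is one of the 8 was used, which gave 13 probe sets of 38439 tested, and 8 of 13009 genes.

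RNA of chondrocytes isolated from the tibiotarsus growth plate of chicks (the tibiotarsus is the long bone of the lower leg) was measured on 8 Affymetrix chicken arrays. Proliferative chondrocytes, which divide in columns and lay down cartilage, were taken from chicks aged 3 weeks (4 arrays). Hypertrophic chondrocytes, which have enlarged and mineralise their matrix, were taken from chicks aged 1 day (4 arrays). No treatment and no genotype are stated, and isolated cells were pooled. Age and cell stage change together here, so their effects cannot be told apart.

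Chondrocytes release matrix vesicles, small membrane sacs in which the first mineral forms. In mouse and human, ANKH exports ATP and pyrophosphate from the cell and ENPP1 splits extracellular ATP to give pyrophosphate. ALPL, tissue-nonspecific alkaline phosphatase, breaks pyrophosphate down and frees phosphate, while PHOSPHO1, an enzyme first found in chick cartilage, frees phosphate from phosphocholine inside the vesicle, and SMPD3 releases that phosphocholine from sphingomyelin. SLC20A1 and SLC20A2 are sodium-phosphate cotransporters found in most tissues, and SLC34A2 is a cotransporter of epithelia such as gut and lung.

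Values are deposited RMA values on the log2 scale, so a difference of 1 is a doubling. The background level was 4.75, the highest over the 8 arrays of the 95th percentile of 744 probe sets for sequences foreign to the chicken, mostly viral. Markers of chondrocytes were far above it, with a mean over 10 markers of 13.2 to 13.5 on the arrays of either group, among them COL2A1 with group means of 14.7 (proliferative) and 14.5 (hypertrophic). The mean over 7 markers of hypertrophic chondrocytes was 9.30 to 10.8 on proliferative and 11.4 to 11.8 on hypertrophic arrays, and 2 of them rose, SPP1 by 2.77 ± 0.34 and MMP13 by 3.81 ± 0.999 (limma adjusted p = 0.00225 and 0.0483). With arrays 3 and 4 averaged SPP1 passed (limma adjusted p = 0.0320) and MMP13 did not (0.124). IBSP differed by 2.62 with groups that did not overlap but did not pass (limma adjusted p = 0.0539), and COL10A1 was high in both groups, at means of 13.4 and 14.1 (limma adjusted p = 0.444). RUNX2, IHH and PANX3 differed by 0.42, -0.43 and -0.495 and did not pass (limma adjusted p = 0.540, 0.450 and 0.567). That is 2 of 7 markers higher, against 7.34% of all genes. In either group array 3 was close to a copy of array 4. Over the 9610 brightest probe sets their difference had an SD of 0.209 (proliferative) and 0.221 (hypertrophic), while any other pair of arrays of the same group gave 0.385 to 0.937. The labels do not name separate birds or pools for the arrays, so the p-values reflect the spread among these arrays alone, which may be technical, and intervals may be too narrow. Differences are hypertrophic minus proliferative, tested with limma, with Benjamini-Hochberg adjustment over all 38439 probe sets and a threshold of 0.05, and errors after a difference are standard errors.

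ANKH was higher in hypertrophic chondrocytes, by 3.55 ± 0.63 on the log2 scale, or 11.7-fold (n = 4 per group; limma adjusted p = 0.0111). A dim probe set of SMPD3 was lower, and the other 11 probe sets did not pass. That is 2 of 13 probe sets called (15.4%), against 8.76% of all probe sets, with 1 higher (4.49% of all) and 1 lower (4.27% of all). Over the 13 probe sets the median log2 difference was 0.001, and over all probe sets it was -0.03. The groups did not overlap in 2 of 13, ANKH and a bright SMPD3 probe set, against 15.2% of all probe sets. When arrays 3 and 4 were averaged into 1 sample per group, none of the 13 passed in limma, against 1.96% of all probe sets, although 4 had an unadjusted p under 0.05 in that setting (16.4% of all probe sets) and 5 had one over the 8 arrays (22.5% of all probe sets).

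**Figure D1:**
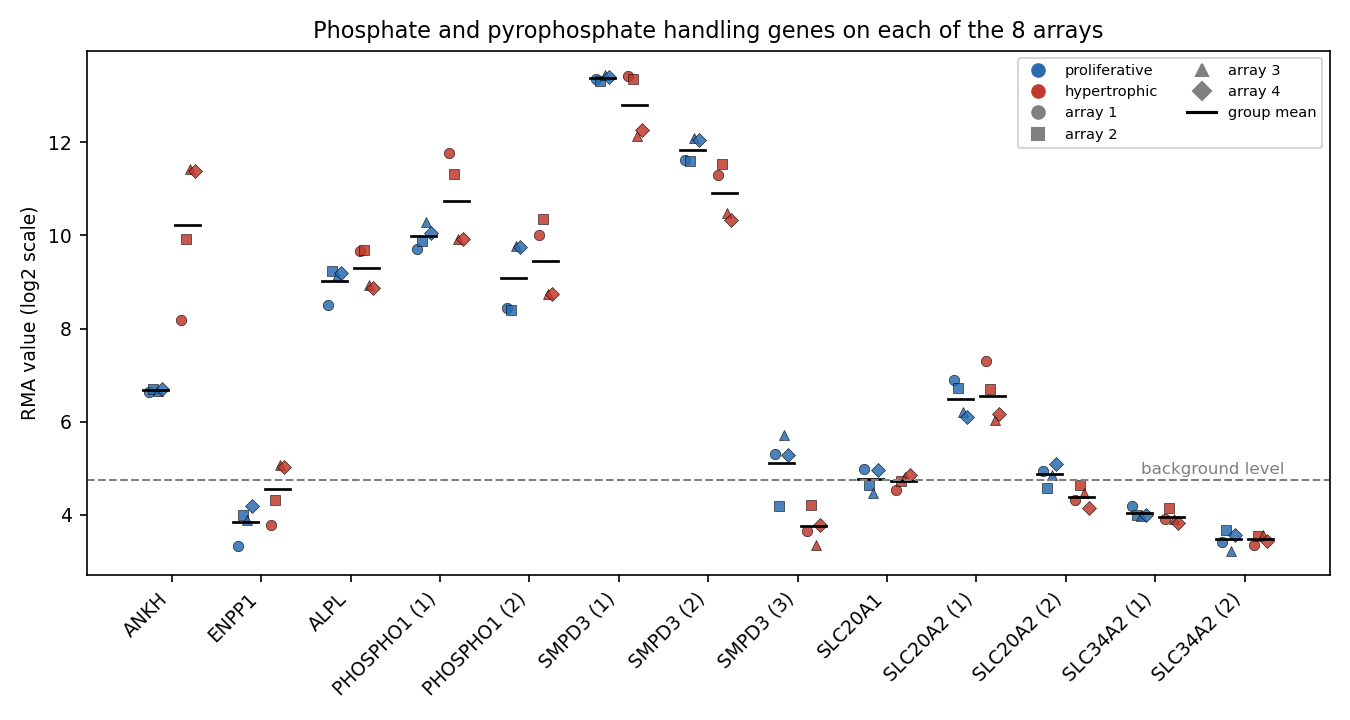
Each point is the RMA value (log2 scale) of 1 array for 1 probe set, with proliferative arrays in blue, hypertrophic arrays in red, the marker shape giving the array number and black bars the group means. Numbers in brackets order the probe sets of a gene by brightness, and the dashed line is the background level of 4.75. ANKH separates the groups, with hypertrophic array 1 at 8.20 and arrays 3 and 4 at 11.4.

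On the side of pyrophosphate supply, ANKH was measured by 1 probe set. Its values on proliferative arrays 1 to 4 were 6.64, 6.71, 6.67 and 6.71, and on hypertrophic arrays 1 to 4 they were 8.20, 9.92, 11.4 and 11.4. All hypertrophic arrays lay above all proliferative arrays, and the hypertrophic arrays were far apart while the proliferative arrays were close together. The SD was 1.53 in the hypertrophic and 0.032 in the proliferative group, and 0.523% of genes had a hypertrophic SD at least that large. The 95% confidence interval of the difference ran from 2.13 to 4.98, and ANKH ranked 32 among the 13009 genes by log2 difference. The limma fit assumes equal spread in the groups, which these SDs do not show. The standard error, interval and p-values of ANKH are therefore uncertain, and the interval may be too narrow. The call held when any 1 array was left out, with differences from 3.16 to 4.23 and limma adjusted p from 2.01e-04 without hypertrophic array 1 to 0.0392 without proliferative array 3. With arrays 3 and 4 averaged, the difference was 3.16 ± 0.71 and did not pass (limma adjusted p = 0.0845). Within arrays 1 and 2 alone it was 2.38 (limma adjusted p = 0.0550), and within arrays 3 and 4 alone 4.72, with no test.

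ENPP1, whose product makes pyrophosphate from ATP, was near background. Its values were 3.33, 3.99, 3.89 and 4.18 on the proliferative arrays and 3.78, 4.32, 5.07 and 5.04 on the hypertrophic arrays. Only hypertrophic arrays 3 and 4, the same arrays on which ANKH was highest, lay above 4.75. Both group means lay below background, so no fold is given, and the measured difference of 0.71 ± 0.31 did not pass (limma adjusted p = 0.212). It passed without hypertrophic array 1 (0.96, limma adjusted p = 0.0381).

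Mean levels of markers of several other cell types were higher on the hypertrophic arrays as well. The mean level of 11 osteoclast markers was 5.999 to 6.63 on proliferative and 7.01 to 7.62 on hypertrophic arrays. Of these markers 3 rose, 1 fell and 7 did not pass. Over all genes 7.34% rose and 5.6% fell, the shares to set beside each marker list. ATP6V0D2, a proton pump subunit of osteoclasts, rose by at least 2.49 (limma adjusted p = 0.00338, and 0.0286 with arrays 3 and 4 averaged). MMP9, a matrix protease, rose by 3.41 ± 0.75 (limma adjusted p = 0.0255, and 0.0794 with arrays 3 and 4 averaged). TNFRSF11A, the receptor RANK, rose by 0.49 ± 0.11, and the transcription factor NFATC1 fell by 0.83 ± 0.15 (limma adjusted p = 0.0285 and 0.0131). Neither passed with arrays 3 and 4 averaged (limma adjusted p = 0.112 and 0.0563). CTSK and TCIRG1 differed by 1.08 and 0.79 with groups that did not overlap, but did not pass (limma adjusted p = 0.159 and 0.0671). CALCR and DCSTAMP were below background on all 8 arrays, and OCSTAMP on all but hypertrophic arrays 1 and 3 (4.81 and 4.83).

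For 12 endothelial markers the mean level was 5.65 to 5.90 against 6.34 to 6.54, and 4 rose, none fell and 8 did not pass. Among those that did not pass, CLDN5 (-0.43), ERG (-0.07) and ROBO4 (-0.22, near background) had negative differences. CDH5, the cadherin of endothelial junctions, rose by 3.06 ± 0.33 and TEK, the angiopoietin receptor, by 1.33 ± 0.19 (limma adjusted p = 0.00131 and 0.00390), and both passed also with arrays 3 and 4 averaged (limma adjusted p = 0.0112 and 0.0438). The proliferative level of CDH5 was at background (mean 4.76, with 1 of 4 arrays above it), so the size of its rise is uncertain. VWF rose by 1.22 ± 0.26 and SOX17 by at least 0.46, while KDR had group means below background in both groups. VWF and SOX17 did not pass with arrays 3 and 4 averaged (limma adjusted p = 0.0914 and 0.101). For 9 leukocyte markers the mean level was 4.79 to 5.12 against 5.54 to 6.13, and 2 rose, 1 fell and 6 did not pass. LAPTM5, a lysosomal membrane protein of blood cells, rose by 2.96 ± 0.32 (limma adjusted p = 0.00129, and 0.0241 with arrays 3 and 4 averaged), CD74 rose by 1.67 ± 0.43 (limma adjusted p = 0.0453), CD3E fell by 0.47 ± 0.10, and PTPRC was below background on all 8 arrays. CD74 and CD3E did not pass with arrays 3 and 4 averaged (limma adjusted p = 0.108 and 0.107). For 6 osteoblast and osteocyte markers the mean level was 7.60 to 8.91 against 8.98 to 9.05, and none passed in the limma fit. In that fit 3 had an unadjusted p under 0.05, against 29.9% of all genes. These were IBSP (2.62) and DMP1 (1.91), which were higher, and COL1A2 (-0.485), which was lower. COL1A1 and BGLAP differed by -0.16 and 0.13, and SOST was below background on all 8 arrays. IBSP is also in the list of hypertrophic chondrocyte markers.

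Within the hypertrophic group, the mean levels of osteoclast, leukocyte and endothelial markers were highest on array 1, at 7.62, 6.13 and 6.54, the array on which ANKH was lowest. Single markers differed in this. Of the 32 markers, 19 were highest and 6 lowest on that array, and of the 9 that rose 6 were highest and 2 lowest there. Like ANKH, LAPTM5 was lowest on array 1, at 6.95, 8.40, 8.32 and 8.48 on hypertrophic arrays 1 to 4, and so was TEK, at 6.19, 6.66, 6.59 and 6.91. The part of these cells in the difference was not tested, and in such bulk samples fewer cells of a type and less RNA per cell cannot be told apart. Levels of 6 erythroid and 5 muscle markers overlapped between the groups, at 6.83 to 7.97 against 7.82 to 8.18 and at 4.75 to 5.09 against 4.76 to 5.27, and none of them passed in the limma fit, with 1 of each at an unadjusted p under 0.05.

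Among genes that free phosphate, ALPL, measured by 1 probe set, stood at 8.51, 9.23, 9.13 and 9.19 on the proliferative arrays and at 9.68, 9.70, 8.94 and 8.87 on the hypertrophic arrays. The groups overlapped, because hypertrophic arrays 1 and 2 lay above every proliferative array and hypertrophic arrays 3 and 4 lay inside the proliferative range. The difference of 0.28 ± 0.25 did not pass (limma adjusted p = 0.591), with a 95% confidence interval from -0.28 to 0.84. A rise of 2-fold or more lies outside that interval, which may be too narrow because arrays 3 and 4 are nearly identical. With arrays 3 and 4 averaged the difference was 0.46 ± 0.29 (limma adjusted p = 0.521), and a 2-fold rise is not excluded in that fit. Within arrays 1 and 2 the difference was 0.82, and within arrays 3 and 4 it was -0.26.

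PHOSPHO1 has 2 probe sets, both above background on all 8 arrays. The brighter one read 9.72, 9.89, 10.3 and 10.1 on the proliferative and 11.8, 11.3, 9.92 and 9.93 on the hypertrophic arrays. The dimmer one read 8.44, 8.41, 9.78 and 9.76 on the proliferative and 10.003, 10.4, 8.75 and 8.73 on the hypertrophic arrays. By either probe set the highest values were on hypertrophic arrays 1 and 2, and hypertrophic arrays 3 and 4 lay among the proliferative values. Differences over the 8 arrays were 0.75 ± 0.41 and 0.37 ± 0.48, and neither passed (limma adjusted p = 0.341 and 0.742). Their 95% confidence intervals, from -0.19 to 1.67 and from -0.71 to 1.44, hold differences in either direction.

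The PHOSPHO1 difference turned with the pair of arrays. Within arrays 1 and 2 it was 1.74 and 1.76 for the brighter and dimmer probe set, which passed in a limma fit of those 4 arrays alone (adjusted p = 0.0138 and 0.0112). Within arrays 3 and 4 it was -0.26 and -1.03. A difference above 1 in size in both pairs of arrays with opposite signs was found in 0.146% of all probe sets (56). The dimmer PHOSPHO1 probe set is among them, just past that cut within arrays 3 and 4, and the brighter one is not. The difference was of opposite sign between the pairs, whatever its size, in 38.7% of all probe sets. The pairs of arrays were compared after seeing the data, and no label says what sets them apart.

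**Figure D2:**
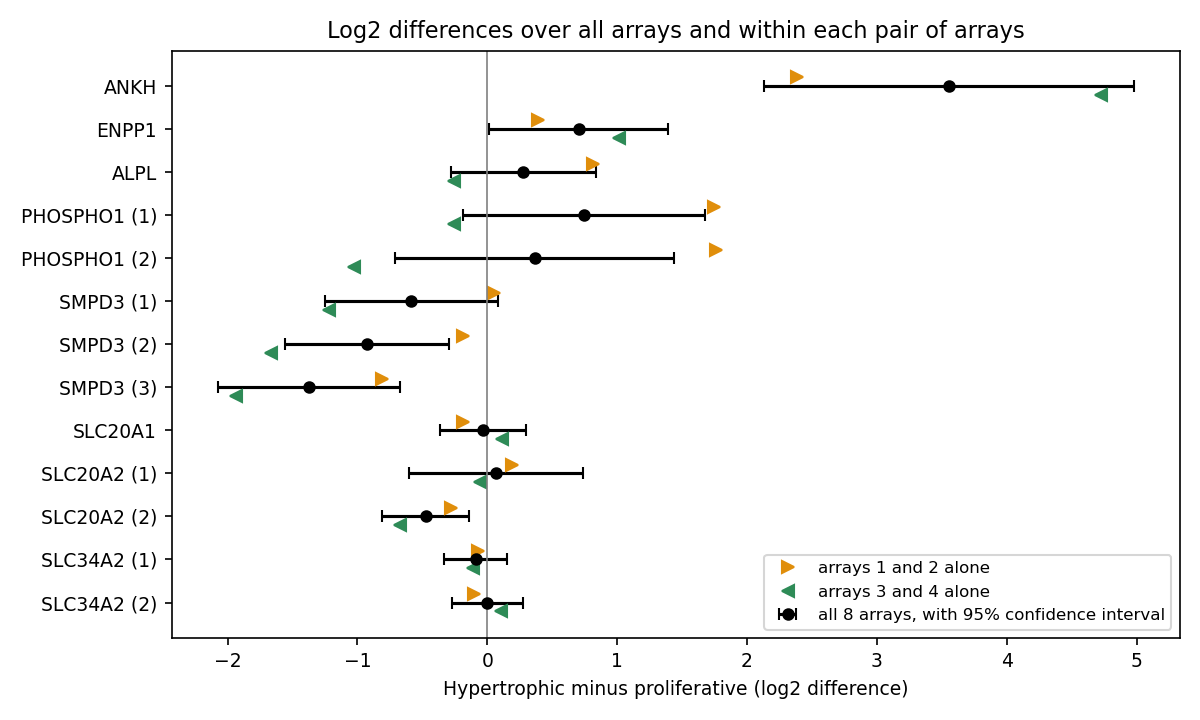
The horizontal axis is the log2 difference, hypertrophic minus proliferative, of each probe set, with black points for all 8 arrays and bars for the 95% confidence interval, orange triangles for arrays 1 and 2 alone and green triangles for arrays 3 and 4 alone. ANKH lies to the right of 0 in both pairs, at 2.38 and 4.72, while ALPL and PHOSPHO1 lie on opposite sides of 0 in the 2 pairs.

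SMPD3 has 3 probe sets, and each gave a lower hypertrophic mean. The brightest read 13.4, 13.3, 13.5 and 13.4 on the proliferative and 13.4, 13.4, 12.1 and 12.3 on the hypertrophic arrays. It was thus level on 6 arrays and lower on hypertrophic arrays 3 and 4, and its difference of -0.59 ± 0.29 did not pass (limma adjusted p = 0.288). Its values are near the top of the table, 14.7, so part of a difference may not be readable there. The second probe set read 11.6, 11.6, 12.1 and 12.05 on the proliferative and 11.3, 11.5, 10.5 and 10.3 on the hypertrophic arrays, with every hypertrophic array below every proliferative one. Its difference of -0.93 ± 0.28 did not pass either (limma adjusted p = 0.0767), but it passed without hypertrophic array 1 or without hypertrophic array 2 (limma adjusted p = 0.0470 and 0.0468, differences of -1.06 and -1.13).

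The third, dim SMPD3 probe set was called. It read 5.30, 4.20, 5.71 and 5.30 on the proliferative and 3.66, 4.21, 3.36 and 3.77 on the hypertrophic arrays, so that the groups overlapped only at array 2 of each. It fell by 1.37 ± 0.31 on the log2 scale (limma adjusted p = 0.0286). Its hypertrophic values were all below background, so the difference is bounded at -0.37 or lower, with each hypertrophic array set to at least 4.75. The call was lost without proliferative array 1, 3 or 4 or hypertrophic array 3 or 4 (limma adjusted p from 0.0688 to 0.0852) and with arrays 3 and 4 averaged (limma adjusted p = 0.165). Within arrays 1 and 2 the 3 probe sets differed by 0.05, -0.19 and -0.81 from brightest to dimmest, and within arrays 3 and 4 by -1.22, -1.67 and -1.93, the values of the dimmest resting on hypertrophic arrays below background.

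The phosphate importers showed no called change. SLC20A1, the cotransporter PiT-1, has 1 probe set, which read 4.99, 4.64, 4.47 and 4.97 on the proliferative and 4.53, 4.73, 4.82 and 4.86 on the hypertrophic arrays. These values straddle the background level, so the level of this gene is hardly measured here. The difference was -0.03 ± 0.15 (limma adjusted p = 0.938).

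SLC20A2, the cotransporter PiT-2, was above background on all arrays by its brighter probe set, at 6.90, 6.74, 6.21 and 6.11 on the proliferative and 7.31, 6.71, 6.04 and 6.18 on the hypertrophic arrays. Arrays 1 and 2 were higher than arrays 3 and 4 in both groups, and the groups overlapped. Its difference was 0.07 ± 0.30 (limma adjusted p = 0.938), with a 95% confidence interval from -0.60 to 0.74. The second probe set, above background on 3 proliferative arrays and no hypertrophic array, gave a difference bounded at -0.11 or lower, and it did not pass (limma adjusted p = 0.0866). SLC34A2 was below background on all 8 arrays by both of its probe sets, which read 3.83 to 4.19 and 3.23 to 3.68.

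Members differed from each other in how arrays 1 and 2 stood to arrays 3 and 4 within a group. In the hypertrophic group, arrays 1 and 2 were lower than arrays 3 and 4 for ANKH, by a mean log2 difference of -2.35. They were higher for ALPL (0.78), for PHOSPHO1 (1.62 and 1.44) and for the brighter pair of SMPD3 probe sets (1.19 and 1.01). ENPP1 was below background on hypertrophic arrays 1 and 2, which bounds its shift at -0.30 or lower, and the dim SMPD3 probe set was below background on all 4. With values set to at least the background level, a shift of over 1 was found in 5 of 13 member probe sets, those of ANKH, PHOSPHO1 and the brighter pair of SMPD3, against 6.07% of all probe sets. Dim probe sets, which show no shift once set to that level, are part of the 6.07%, so it is a low share to set beside brighter probe sets. Such a shift was also found in 15 of the 63 other genes described below, each by its brightest probe set. The share over all genes by brightest probe set was not computed, so this count cannot be set against the 6.07%. The shift can therefore not be called particular to the members. Other genes of either role did not all keep the order seen in the members of that role. PANX3, a channel that releases ATP, shifted by 1.69 and CHKA, which makes phosphocholine, by -2.38 (both chosen after their values were seen).

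In the proliferative group the same shift was -0.01 for ANKH, -0.29 for ALPL, -0.38 and -1.34 for PHOSPHO1 and -0.08 and -0.47 for the brighter pair of SMPD3. Apart from ANKH, which was level, the mean of proliferative arrays 1 and 2 was therefore lower than that of arrays 3 and 4 in each. For ALPL this rested on proliferative array 1 (8.51), since array 2 (9.23) lay above arrays 3 and 4 (9.13 and 9.19). The sign of the shift for ALPL, PHOSPHO1 and SMPD3 was opposite to that in the hypertrophic group. Among transporters, the brighter SLC20A2 probe set was higher on arrays 1 and 2 in both groups, by 0.66 and 0.90. The actin control of RNA integrity, the log2 difference between probe sets at the 3′ and 5′ ends of ACTB, also moved with the pairs. It was 1.90 and 1.80 on proliferative arrays 1 and 2 and 1.58 and 1.35 on hypertrophic arrays 1 and 2, against 0.97, 0.86, 0.86 and 1.06 on arrays 3 and 4 of the groups in that order. The same control for GAPDH was -0.07 and -0.29 on hypertrophic arrays 1 and 2 and -0.43 and -0.40 on hypertrophic arrays 3 and 4, with -0.44 to -0.29 on the proliferative arrays. The mean over the 7 markers of hypertrophic chondrocytes differed between the proliferative pairs too. It was 9.30 and 10.2 on proliferative arrays 1 and 2, against 10.8 on each of arrays 3 and 4. IHH went the other way, with a shift of 0.73. The part of RNA integrity in these shifts was not tested, nor was that of the hypertrophic markers.

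**Figure D3:**
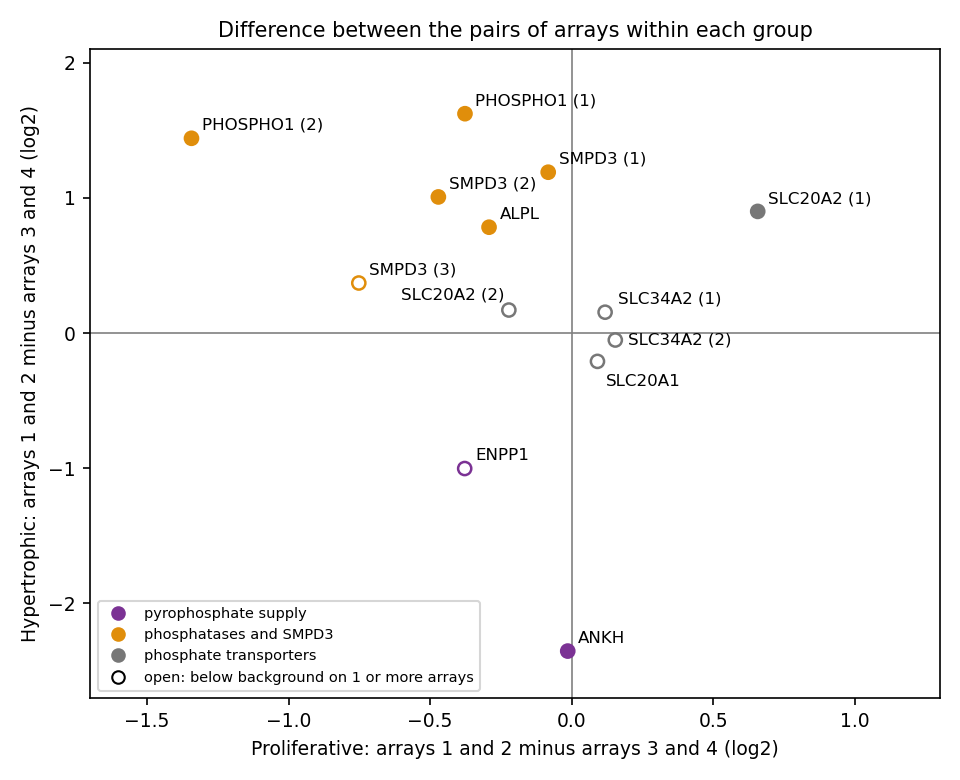
Each point is a probe set, placed by the mean of arrays 1 and 2 minus the mean of arrays 3 and 4 (log2) in the proliferative group on the horizontal axis and in the hypertrophic group on the vertical axis, coloured by role, with open points for probe sets below background on 1 or more arrays, whose position is not reliable. Among filled points ANKH (-2.35) lies below 0 on the vertical axis, and ALPL, PHOSPHO1 and the brighter pair of SMPD3 lie above it, from 0.78 to 1.62.

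By root mean square distance between values centred on their own mean over the 8 arrays, the genes nearest to ANKH were CDH8 (0.144), CD38 (0.214) and PIK3IP1 (0.266). CDH8 is a cadherin, read here by a probe set whose name marks probes that can match other sequences, CD38 an enzyme that breaks down NAD, and PIK3IP1 a membrane inhibitor of PI3 kinase. On hypertrophic arrays 1 to 4, CD38 read 6.56, 8.54, 9.44 and 9.57, and on proliferative arrays 5.21, 5.30, 5.05 and 5.33. CDH8 rose by 3.42 ± 0.58 and CD38 by 3.31 ± 0.58 (limma adjusted p = 0.00932 and 0.0102), and PIK3IP1, whose proliferative mean lay below background, rose by at least 3.66 (estimate 3.88 ± 0.63, limma adjusted p = 0.00760). These genes were picked for their likeness to ANKH on the same 8 arrays, so a similar rise and p-value follow from the choice. They are no separate support for the rise of ANKH. None of the 3 passed with arrays 3 and 4 averaged (limma adjusted p = 0.0748, 0.0832 and 0.0641).

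**Figure D4:**
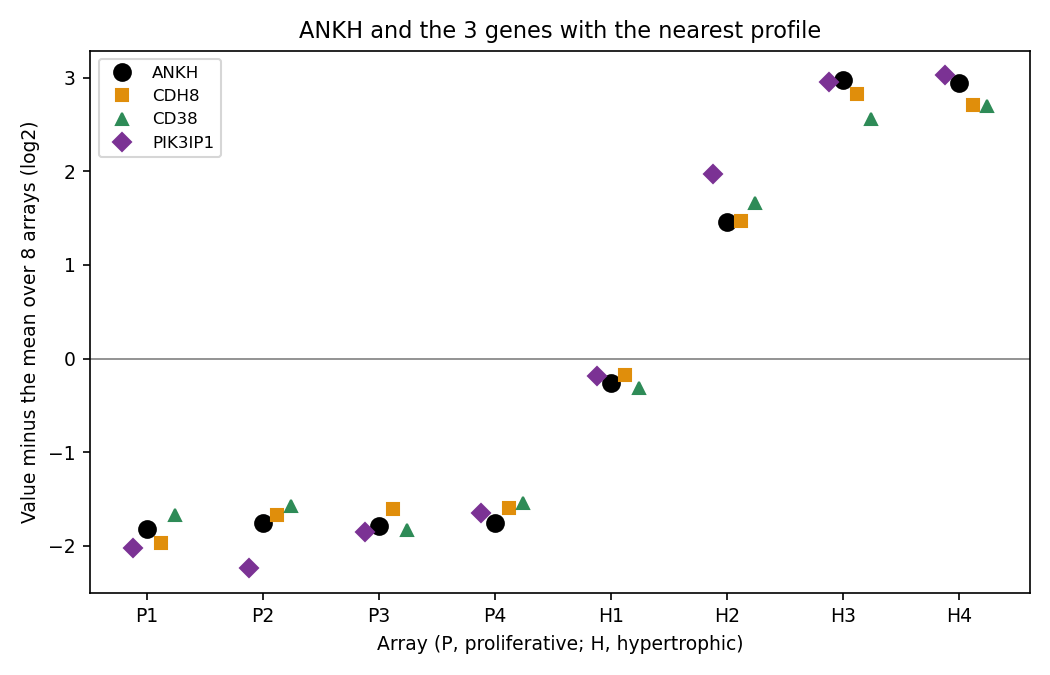
Points are values of ANKH and of the 3 genes with the nearest profile on each array (P, proliferative; H, hypertrophic), minus each gene's mean over the 8 arrays (log2). In all 4 genes hypertrophic array 1 is the lowest of the hypertrophic arrays and array 2 lies below arrays 3 and 4. The 3 genes were chosen for this likeness to ANKH.

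Of 63 other measured genes of phosphate and pyrophosphate metabolism, 3 rose, 3 fell and 57 did not pass, each gene by its brightest probe set. That is 9.52% called against 12.9% of all genes, with 4.76% in either direction against 7.34% of all genes higher and 5.6% lower. Their median log2 difference was -0.01, and that of all genes was -0.02. With arrays 3 and 4 averaged none of the 63 passed in limma, and 14 had an unadjusted p under 0.05 (22.2% of all genes).

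In the list of pyrophosphate supply and removal 1 of 18 genes rose, 2 fell and 15 did not pass, with a median of -0.07. An unadjusted limma p under 0.05 was found for 10 of the 18, in both directions, against 29.9% of all genes. ENPP6, a choline phosphodiesterase related to ENPP1, rose by 2.20 ± 0.40 (limma adjusted p = 0.0128), from a mean of 5.45 ± 0.13 to 7.64 ± 0.96 (SD, n = 4). ENPP2, autotaxin, which makes lysophosphatidic acid, fell by 1.05 ± 0.20 (limma adjusted p = 0.0155), and ENPP4 fell by 0.99 ± 0.26 (limma adjusted p = 0.0477). A second probe set of each, with differences of -1.37 and -0.60, did not pass (limma adjusted p = 0.0751 and 0.0754), and the call of ENPP4 was lost in 6 of the 8 fits that left out 1 array. Relatives of ENPP1 in the same family thus passed in both directions.

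No gene of 14 for phosphatases and phosphocholine supply passed by its brightest probe set in limma (median -0.25; 2 had an unadjusted p under 0.05, against 29.9% of all genes). CHKA, choline kinase alpha, which makes the phosphocholine that PHOSPHO1 uses, differed by -1.98 ± 0.59 (limma adjusted p = 0.0767) with groups that did not overlap. Of its 5 probe sets 3 others were called lower, and the remaining one lay below background in both groups. The second brightest fell by 1.61 ± 0.35 (limma adjusted p = 0.0242), losing the call in 3 fits that left out 1 array. The other called pair had hypertrophic means below background, which bounds their differences at -1.41 and -1.003 or lower, and both passed also with arrays 3 and 4 averaged (limma adjusted p = 0.0182 and 0.0407). SGMS1, a sphingomyelin synthase, differed by -0.34 ± 0.12 (limma adjusted p = 0.124).

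Among 12 genes listed under phosphate transport, not all of which carry phosphate itself, 1 fell and 11 did not pass, with a median of 0.10. SLC17A9, which loads ATP into vesicles, fell by 1.67 ± 0.41 (limma adjusted p = 0.0364), and its second probe set fell by 1.24 ± 0.26 (limma adjusted p = 0.0206). The call of the first was lost in 7 of 8 fits that left out 1 array, and that of the second in 4. Its difference within arrays 1 and 2 was -0.97, and within arrays 3 and 4 it was -2.37.

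Of 19 genes of phosphate sensing and its hormones 2 rose and 17 did not pass, with a median of 0.07. FGFR1, a receptor of the phosphate-lowering hormone FGF23, rose by 1.39 ± 0.22 (limma adjusted p = 0.00746), by 1.39 within arrays 1 and 2 and by 1.40 within arrays 3 and 4. With arrays 3 and 4 averaged it did not pass (limma adjusted p = 0.0637). STC2, stanniocalcin 2, a secreted glycoprotein, rose by 1.48 ± 0.35 (limma adjusted p = 0.0330), a call lost in 7 of 8 fits that left out 1 array. Its second probe set differed by 1.63 ± 0.47, with groups that did not overlap, and did not pass (limma adjusted p = 0.0687). Group means of FGF23 were below background in both groups.

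**Figure D5:**
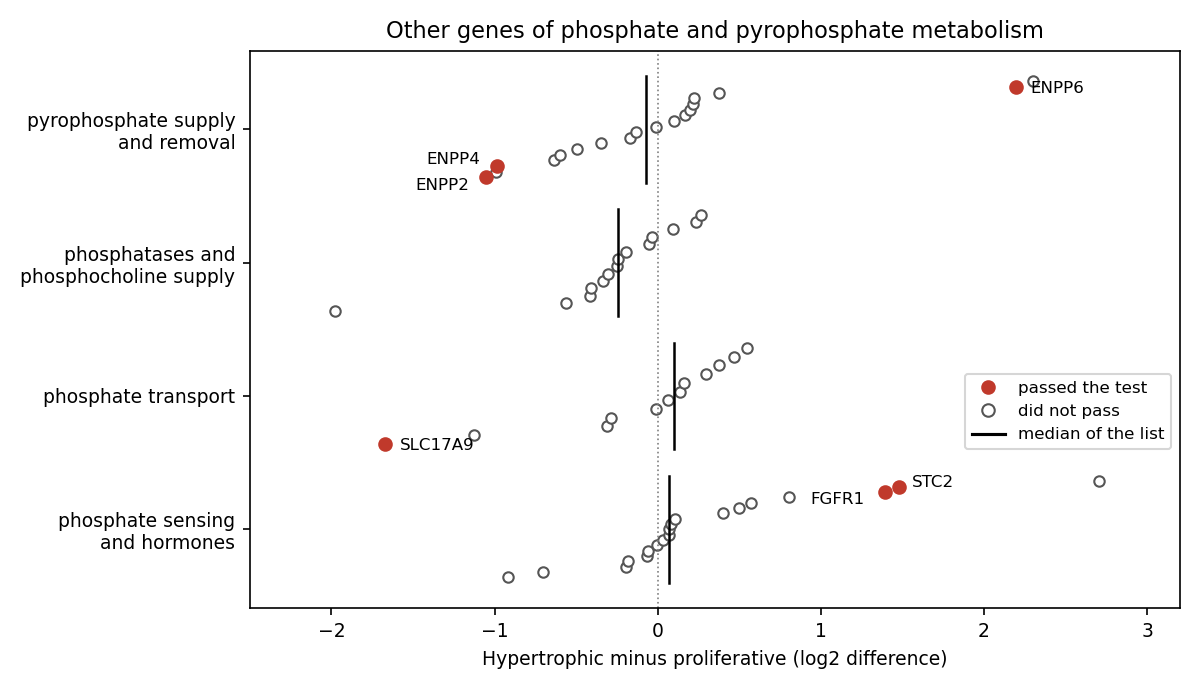
Each point is a gene of 1 of 4 lists, placed by its log2 difference, hypertrophic minus proliferative, with filled red points for genes that passed the test and open points for the others, and black bars at the median of each list. Medians lie between -0.25 and 0.10, and 6 of 63 genes passed, 3 in each direction.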

How the data were processed

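The authors deposited log2 values per probe set for all 8 arrays, and the submitters' processing notes name RMA as the method. Per the labels' protocols, RNA was purified with a column kit and labelled with biotin. RMA corrects background, quantile-normalises arrays together and compresses differences among dim probe sets. The software that ran RMA is not given in the sources used here. The number of arrays limits the precision.

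The table has 38535 rows, of which 96 control probe sets were left out. The platform annotation gives 1 symbol to 27168 probe sets, several to 177 and none to 11094. Symbols were updated by gene identifier from RefSeq (GRCg7b), and 26853 matched. Outside the members a gene is represented by its brightest probe set, of 13009 genes in all. The two-sided test used limma (version 3.58.1, lmFit with eBayes) under R 4.3.3. The test was checked on simulated data. A bound sets each array of the dimmer group to at least the background level, concerns the estimate only and leaves out sampling error.

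Members, lists and alternatives were chosen with earlier results of these data known. The text names every member; of each list the genes past the threshold (at most 6), or the 2 with the smallest adjusted p where none passed; the 3 genes nearest to a called member; and markers. Replicate numbers are shared by the groups. Deviations of same-numbered arrays correlated at 0.153, 0.011, 0.222 and -0.009, so the numbers were not taken to pair the arrays. Deviations of arrays 1 and 2 of either group correlated at -0.352 to -0.042 with those of arrays 3 and 4 of the other. Within the same pair of numbers they correlated at -0.009 to 0.32. Deviations are from group means, so both signs are built in. The main fit has no term for these pairs, and a block for them is an alternative. Of 75 listed genes, 63 had a probe set with that symbol alone; the others were not analysed here. Alternatives were 3 other normalisations, a dim-probe filter, array weights, a variance trend, blocks, averaging or leaving out arrays, a test against a minimum change and the mean of a gene's probe sets.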

Additional observations from a re-analysis of the deposited data

Results flagged for a closer look

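In 3 of 48 sets of 4 values (24 named probe sets in 2 groups), 1 array lay far from the rest by Dixon's criterion. Chance alone meets it in about 1 in 20 sets of 4 independent values. Arrays 3 and 4 are nearly identical, so that rate need not hold here. In each case it was proliferative array 1. For ALPL it was low, at 8.51 against 9.13 for the next array, and without it ALPL differed by less, at 0.11 on the log2 scale. For the brighter SLC34A2 probe set it was high, at 4.19 against 4.002, with all values below background. FGFR1 was low on it, at 7.02 against 7.46.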

How the results depend on the processing

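ANKH kept its direction in all 20 alternatives and its call in all but 3 of those tested: with arrays 3 and 4 averaged, with arrays 1 and 2 alone, and in a test against a minimum change of 1 (limma adjusted p = 0.241). Arrays 3 and 4 alone gave its value with no test. Over the 13 member probe sets, the count of 1 higher became 2 with array weights, 2 with arrays 1 and 2 alone and 0 with arrays 3 and 4 averaged, and was 1 to 2 when 1 array was left out. The count of 1 lower became 4 with array weights and 0 with a filter on dim probe sets, arrays 1 and 2 alone, arrays 3 and 4 averaged or a replicate block, and was 0 to 2 when 1 array was left out. Array weights favour the nearly identical arrays 3 and 4. The share of all probe sets called was 1.96% with arrays 3 and 4 averaged and is not given for the other alternatives. Changes in these counts are therefore not a result about the members.

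Of the 63 other genes, the 3 higher became 5 with centring on ribosomal protein genes, cyclic loess, a variance trend, a replicate block or arrays 1 and 2 against 3 and 4 as a block, 6 with the mean of a gene's probe sets, 9 with array weights and 0 with arrays 3 and 4 averaged or arrays 1 and 2 alone; without 1 array the count was 2 to 7. The 3 lower became 5 with ribosomal centring or a replicate block, 6 with the dim filter or the mean of probe sets, 8 with arrays 1 and 2 against 3 and 4 as a block, 12 with array weights and 0 with arrays 3 and 4 averaged; without 1 array the count was 1 to 5. Under the replicate block the dim SMPD3 probe set did not pass (adjusted p = 0.0675), and 1 of 8 arrays correlated best with its own number. With arrays 3 and 4 averaged, 261 of all 13009 genes were higher and 161 lower. Shares of all genes called under the other alternatives are not given, so changes in count are not a result about the 63 genes. The cause of the changes was not tested.

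Reversed directions were found in differences that did not pass over the 8 arrays. Both PHOSPHO1 probe sets passed with arrays 1 and 2 alone (1.74 and 1.76) and were negative with arrays 3 and 4 alone (-0.26 and -1.03). Arrays 3 and 4 alone also turned ALPL (-0.26), SLC20A1 (0.12) and the brighter SLC20A2 probe set (-0.053). The dimmer PHOSPHO1 probe set gave -0.31 with array weights, and the brightest SMPD3 probe set 0.05 with arrays 1 and 2 alone. SLC20A1 gave 0.015 with cyclic loess, 0.049 with array weights and -0.13 to 0.039 without 1 array. The brighter SLC20A2 probe set gave -0.02 with ribosomal centring, -0.11 with array weights and -0.18 to 0.24 without 1 array. The dimmer SLC34A2 probe set, below background, gave -0.006 with median centring, -0.088 with ribosomal centring, -0.033 with arrays 3 and 4 averaged, -0.10 with arrays 1 and 2 alone and -0.082 to 0.069 without 1 array. Signals near background limit what can be read of ENPP1, SLC20A1 and SLC34A2.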

Other observations

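Among the pathway genes that did not pass the test, PHEX and NT5E were chosen for mention after their values were seen. PHEX, an endopeptidase whose loss in humans causes X-linked hypophosphataemia, was at 3.82, 3.82, 3.94 and 4.00 on the proliferative arrays, all below the background level. On the hypertrophic arrays it was at 4.66, 5.51, 8.30 and 7.92, so that arrays 3 and 4 stood well above arrays 1 and 2. The groups did not overlap, and the log2 difference was at least 1.85, with each proliferative array set to the background level, but it did not pass (n = 4 and 4, limma adjusted p = 0.0552). NT5E, the ecto-enzyme that makes adenosine and phosphate from AMP, was at 4.34, 4.68, 5.59 and 5.55 on the proliferative and at 5.59, 6.77, 8.51 and 8.51 on the hypertrophic arrays. Its groups met at 5.59, and the log2 difference was 2.30 ± 0.64 (SE, n = 4 and 4, limma adjusted p = 0.0606). With arrays 3 and 4 averaged, the adjusted p was 0.228 for PHEX and 0.208 for NT5E.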
